A study of Mus musculus with 23 samples.

Results

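The genes described here are Dach2 and the other mouse genes of the SIX-EYA-DACH families that were followed with it, namely Dach1, Six2, Six4, Six5, Eya1, Eya2, Eya3 and Eya4. They were measured in TM4 cells, an immortalized Sertoli cell line from young mice, after exposure to plasticizers. Members were found as the non-control probes whose RefSeq transcript belongs to 1 of these 9 genes, which gave 13 of the 55681 non-control probes on the array and 9 of the 20145 gene symbols that could be named. The genes were chosen because Dach2 was already known to differ between treated and control arrays in these data. Differences of members from DMSO are therefore a description. Whether a member met the call rule of the limma fits over all genes, a Benjamini-Hochberg adjusted p under 0.05 together with more than a 1.5-fold change, is given only so that members can be counted beside the share of all genes called, without p-values, and nothing rests on it.

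Each sample was a separate culture of TM4 cells grown for 48 hr with 100 µM of 1 compound or with the vehicle alone, and every culture, controls included, contained 1.0% DMSO. The compounds were MEHP, the mono-ester metabolite of the phthalate plasticizer DEHP, DINCH, a cyclohexane dicarboxylate in commercial use, DOM, a dioctyl maleate, DOS, a dioctyl succinate, and BDB, a dibenzoate of 1,4-butanediol. DOM and DOS carry the same octyl chains and differ in the double bond of the core. There were 4 biological replicates per group and 3 for DOS, 23 cultures in all, each measured on its own array in a single colour. A permanent line stands in for Sertoli cells with limits. Of 15 Sertoli cell markers, 8 were well above background, here called detected, on all 4 DMSO arrays, while Wt1, Amh, Trf, Fshr, Nr0b1 and Cldn11 were not well above background on any of them. None of 4 germ cell markers and neither of the 2 macrophage markers that could be named was detected on any DMSO array, against 1 of 4 Leydig, 3 of 5 peritubular or fibroblast and 1 of 2 endothelial markers detected on all 4.

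SIX-family proteins are homeodomain transcription factors that bind DNA. EYA proteins carry no DNA-binding domain of their own, are recruited by SIX-family proteins as coactivators and also act as phosphatases. DACH proteins resemble the Ski family and mostly act as corepressors in the same complexes. The network is known from the fly eye, where sine oculis, eyes absent and dachshund are its founding genes, and in vertebrates it serves in kidney, ear and muscle development. In the mouse gonad, SIX-family factors, Six4 among them, serve growth of the gonadal precursor and male sex determination. In skeletal muscle, Dach2 links innervation to the myogenin gene, since histone deacetylases lower Dach2 after denervation and Dach2 represses Myog. A microarray of a whole culture reports summed RNA, so that fewer cells carrying a transcript and less transcript per cell cannot be told apart.

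The promoters of the 3 members that the results turn on are shown first, as the sequence from which Dach2, Six4 and Six5 are transcribed. The windows are from RefSeq on GRCm38.p6 and run from 250 bases before to 50 bases after an annotated start, 300 bases in all, 5′ to 3′ on the gene's strand. Dach2 spans chrX:113297496-113836386 and has windows at chrX:113297260-113297559 and chrX:113298006-113298305 on the plus strand. Six4 spans chr12:73099609-73114031, and the window shown is chr12:73113196-73113495 on the minus strand, while its other window overlaps that one. Both Six4 windows lie inside this span, downstream of its 5′ end at 73114031, so their annotated starts are internal to it. Six5 spans chr7:19094544-19098549, with a window at chr7:19094294-19094593 on the plus strand. Capitals mark a MEF3 motif, the site that SIX-family proteins bind.
Dach2, upstream start: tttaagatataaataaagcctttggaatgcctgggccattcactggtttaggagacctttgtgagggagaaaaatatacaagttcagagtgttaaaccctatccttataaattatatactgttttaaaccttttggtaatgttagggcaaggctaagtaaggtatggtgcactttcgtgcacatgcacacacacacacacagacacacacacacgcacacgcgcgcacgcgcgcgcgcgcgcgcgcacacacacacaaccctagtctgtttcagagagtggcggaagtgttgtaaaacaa
Dach2, downstream start: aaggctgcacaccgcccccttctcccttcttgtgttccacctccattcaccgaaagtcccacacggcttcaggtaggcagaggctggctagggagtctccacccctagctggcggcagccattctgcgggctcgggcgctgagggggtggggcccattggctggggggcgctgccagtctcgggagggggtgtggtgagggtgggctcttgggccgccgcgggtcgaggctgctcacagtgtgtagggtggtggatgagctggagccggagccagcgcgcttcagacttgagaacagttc
Six4: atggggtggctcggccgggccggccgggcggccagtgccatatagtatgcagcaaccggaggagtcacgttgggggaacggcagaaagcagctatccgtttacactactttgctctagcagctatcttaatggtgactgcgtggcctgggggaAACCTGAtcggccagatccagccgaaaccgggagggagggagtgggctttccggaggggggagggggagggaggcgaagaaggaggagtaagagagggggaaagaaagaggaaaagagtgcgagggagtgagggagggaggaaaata
Six5: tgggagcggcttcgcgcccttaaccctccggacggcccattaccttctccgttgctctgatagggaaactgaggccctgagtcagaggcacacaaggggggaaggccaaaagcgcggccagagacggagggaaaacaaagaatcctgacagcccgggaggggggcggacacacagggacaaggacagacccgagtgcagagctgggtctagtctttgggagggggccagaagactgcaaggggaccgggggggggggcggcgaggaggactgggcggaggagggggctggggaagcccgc
Windows were found for 7 of the 9 members, 10 windows in all. They were searched on both strands for the MEF3 motif TCAGGTT, for the PPAR element DR1 (the half-site AGGTCA repeated after 1 base) and for the antioxidant response element TGACNNNGC. The only match was the MEF3 motif in the Six4 window, read on the opposite strand at bases 154 to 160 of the window. It began at -97 relative to the annotated start of that window, which lies inside the span of the gene. Among all 32851 promoter windows of the reference, 4.07% held this motif, 0.0396% the PPAR element and 12.4% the antioxidant element. With 1 match in all, no matches overlapped. A match is a string of letters and was not tested for binding. The downstream Dach2 window was 66.3% G and C and the upstream one 45.3%.

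Levels are given as the log2 of the background-subtracted spot signal minus the log2 of the array's 75th percentile, so that 0 is a probe at that percentile and each step of 1 is a doubling. The level of a probe depends on its sequence as well as on the transcript, and levels are compared only between arrays for the same probe. Of the 9 members, Six4, Six5, Eya1 and Eya3 were well above background on all 23 arrays. Dach1 was so on 13 arrays, Eya4 on 8, Dach2 on 7, Eya2 on 4 and Six2 on 1. Of the 3 Dach2 probes, only A_55_P1956534, designed on NM_033605, was detected at all, and the 2 designed on NM_001142570 were not well above background on any array. The second probes of Dach1 and of Six2 were detected nowhere. The value of a gene below is that of its brightest probe. No member spot was saturated, and no member value was missing.

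Dach2 was detected on all 4 DMSO arrays and on 3 of the 19 treated ones. Its levels under DMSO were -3.43, -2.88, -3.22 and -3.08 in replicates 1 to 4, close to the dim end of the array, with processed signals of 27.6 to 34.1 units. Under MEHP they were -5.82, -5.87, -5.00 and -6.43, and under DINCH -5.62, -6.21, -6.21 and -6.05, with no array of either group well above background. Under DOM they were -4.79, -6.15, -6.04 and -6.55, with only replicate 1 well above background. Under BDB they were -4.56, -4.20, -4.55 and -5.27, with replicate 2 detected. Under DOS, which had replicates 1, 3 and 4, they were -4.87, -4.46 and -3.89, with replicate 4 detected. Every one of the 19 treated arrays lay below every DMSO array.

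**Figure D1:**
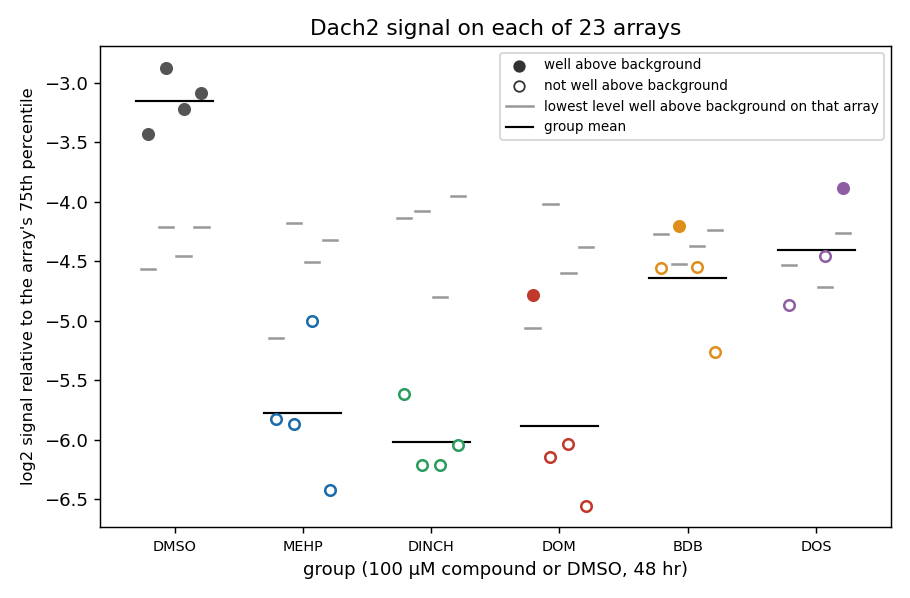
Dach2 level (probe A_55_P1956534) on each of the 23 arrays, as log2 signal relative to the array's 75th percentile (y axis) by group (x axis, replicates 1 to 4 from left to right). Filled points are well above background, open points are not, black lines are group means and grey ticks the dimmest level called well above background on that array. The 4 DMSO points, -3.43 to -2.88, lie above all 19 treated points, and the MEHP and DINCH points are all open.

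Group means of the Dach2 level ran from -3.15 ± 0.23 (SD, n = 4) under DMSO through -4.41 ± 0.49 (n = 3) under DOS, -4.64 ± 0.45 (n = 4) under BDB, -5.78 ± 0.59 (n = 4) under MEHP and -5.88 ± 0.76 (n = 4) under DOM to -6.02 ± 0.28 (n = 4) under DINCH. DMSO and DOS, the first neighbours in this order, did not overlap, whereas DOS overlapped BDB, BDB overlapped MEHP, and the last 3 groups overlapped one another. The log2 difference from DMSO was -2.63 (SE 0.27) under MEHP, -2.87 (SE 0.17) under DINCH, -2.73 (SE 0.33) under DOM, -1.49 (SE 0.21) under BDB and -1.25 (SE 0.23) under DOS. Where no treated array was well above background the difference was also taken with a floor. With each array's dimmest detected level as the floor, Dach2 was 2.62-fold lower under MEHP and 2.13-fold lower under DINCH. These values rest on the chosen floor and are no lower limits, since the differences under normexp, given below, were smaller. Dach2 entered the fits only through the DMSO group, where it was detected, so that a difference in this direction was built into its selection.

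The size of the Dach2 difference rested on how dim signals were treated. After the normexp background correction, with an offset of 50 units that exceeds the Dach2 signal itself, the log2 differences were -0.52, -0.42, -0.61, -0.30 and -0.20 for MEHP, DINCH, DOM, BDB and DOS. With each array's dimmest detected level as a floor they were -1.39, -1.09, -1.29 and -1.12 for MEHP, DINCH, DOM and BDB. Under DOS the floored difference stayed within the spread of replicates around its unfloored value of -1.25. DINCH, with the largest unfloored difference, had the smallest of the floored differences printed here, so the order of the compounds was not kept. The direction was the same in each setting and on each slide. Within slides the difference ran from -3.34 to -1.96 under MEHP, from -3.16 to -2.19 under DINCH, from -3.47 to -2.04 under DOM, from -2.18 to -1.13 under BDB and from -1.44 to -1.09 under DOS, which shared only 2 slides with DMSO. MEHP, DINCH and BDB arrays lay in other rows of the slides than DMSO arrays, and for them row and compound cannot be told apart. DOM and DOS shared the rows of DMSO. The undetected probe A_52_P247559 was lower than DMSO on every array of MEHP, DINCH, BDB and DOS and overlapped it under DOM. The other undetected probe, A_55_P1956537, overlapped DMSO under all 5 compounds, with differences of -0.68 under MEHP to 0.40 under DINCH, where it was higher on each slide. Both probes were at levels without a call of presence.

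Dach1, the other corepressor of the pair, was dim. Its levels under DMSO were -4.06, -4.94, -4.42 and -4.73, with only replicate 1 detected. Under MEHP they were -3.83, -3.79, -3.71 and -3.84, and all 4 arrays were detected, each above every DMSO array. The difference was 0.74 (SE 0.17), a 1.68-fold higher level under MEHP that was not called, and Dach1 had entered that comparison through the MEHP arrays alone. Under DINCH 3 of 4 arrays were detected, from -4.19 to -3.18, under BDB and DOS 2 each, and under DOM 1. All of these groups overlapped DMSO and were not tested. Dach1 was higher and Dach2 lower under MEHP, but each entered through the group that detected it. These opposite directions were thus built in, and nothing is read from them. The undetected second Dach1 probe had a difference of -0.66 under MEHP and overlapped DMSO.

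Six4, a SIX-family factor with a role in the gonad, was detected throughout. Its DMSO levels were -0.10, -0.12, -0.06 and -0.03, the tightest of any group for this gene, with an SD of 0.04. Under DOM they were 0.40, 0.78, 0.82 and 0.68, all above DMSO, and under BDB -0.37, -0.57, -0.28 and -0.42, all below DMSO. Every DOM array lay above all 19 other arrays. The difference from DMSO was 0.74 (SE 0.11), or 1.68-fold, under DOM, which was called, and -0.34 (SE 0.09), or 1.26-fold, under BDB, which was not. The MEHP arrays ranged from -0.16 to 0.15, the DINCH arrays from -0.36 to 0.11 and the DOS arrays from -0.26 to 0.04, and all 3 groups overlapped DMSO. Across slides the DOM difference was 0.69, 0.91 and 0.70, and the BDB difference -0.28, -0.33 and -0.40.

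Six5, a homeodomain factor whose gene lies beside the myotonic dystrophy kinase gene, was the member that was higher under most compounds. Its levels were -0.53, -0.26, -0.11 and 0.14 under DMSO. They were 1.13, 0.49, 0.67 and 1.01 under DINCH and 0.68, 0.68, 0.48 and 1.17 under DOM. Under MEHP they were 0.43, 0.34, 0.38 and 0.62, and under DOS 0.14, 0.38 and 0.43. Every array of these 4 compounds lay above every DMSO array, by the narrowest margin under DOS, whose lowest array and the highest DMSO array were both at 0.14 after rounding. BDB, at 0.04, -0.14, -0.02 and 0.11, overlapped DMSO. Differences were 1.01 (SE 0.18) under DINCH and 0.94 (SE 0.18) under DOM, both called, 0.63 (SE 0.14) under MEHP and 0.51 (SE 0.16) under DOS, neither called, and 0.19 (SE 0.14) under BDB. The MEHP difference, at 1.55-fold, lay just outside the call. Without DMSO replicate 4 it was 0.74 on the log2 scale. The DINCH difference was 2.02-fold. On slide 1, where the lowest DMSO array was, the DINCH difference was 1.65, against 0.67 and 0.70 on the other slides.

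**Figure D2:**
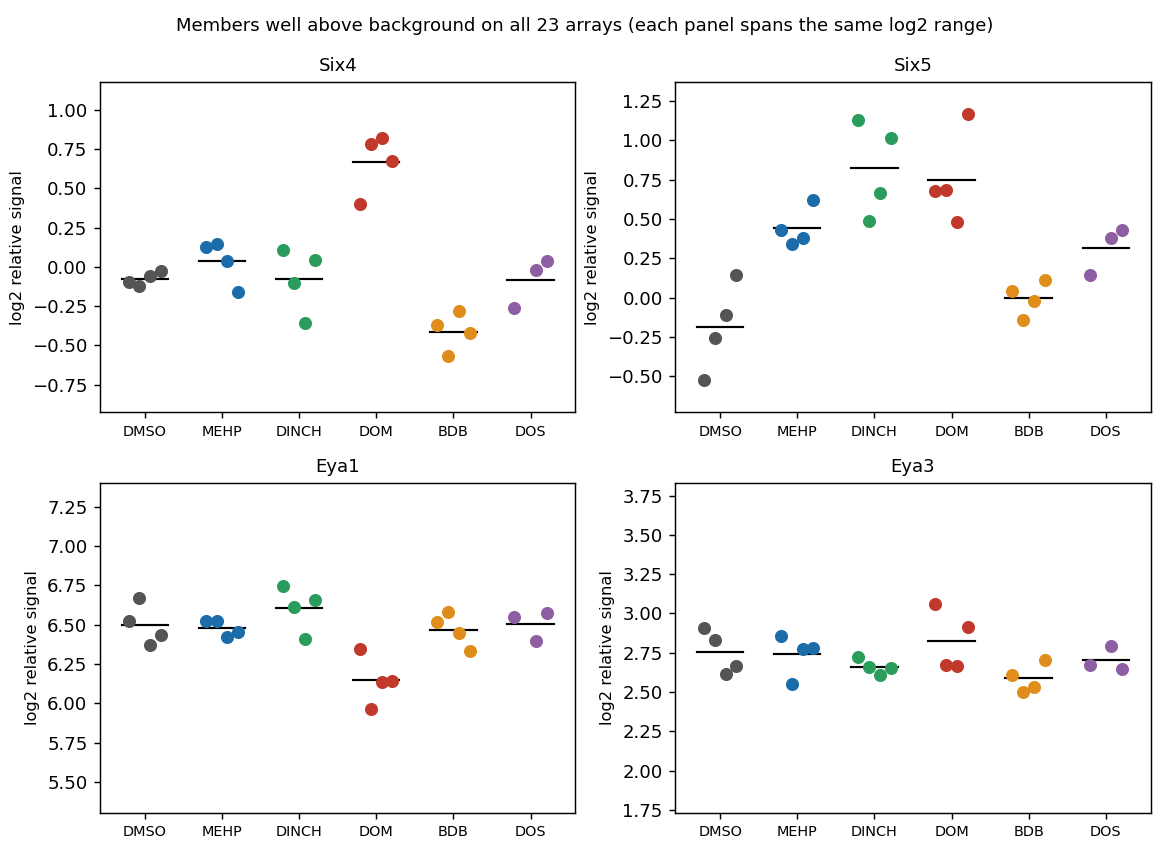
Levels of Six4, Six5, Eya1 and Eya3 on each of the 23 arrays, as log2 signal relative to the array's 75th percentile (y axes, the same span in each panel) by group (x axes), with black lines at group means. Six4 stands highest under DOM (0.40 to 0.82) and lowest under BDB (-0.57 to -0.28), Six5 is above DMSO in 4 groups, Eya1 lies below DMSO under DOM (5.96 to 6.35) and the Eya3 groups overlap.

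Six2, which maintains nephron progenitors in the kidney, was detected on BDB replicate 2 alone, at -3.34, and its other 22 values ran from -7.20 to -5.15. It gave no comparison between groups.

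Eya1, the coactivator lost in branchio-oto-renal syndrome, gave bright spots, with processed signals of 17400 to 30060 units. Its levels were 6.53, 6.67, 6.37 and 6.43 under DMSO and 6.35, 5.96, 6.14 and 6.14 under DOM, where each array lay below each DMSO array. The DOM difference was -0.35 (SE 0.11), or 1.28-fold, below the size needed for a call. The other groups, with means of 6.47 to 6.61, overlapped DMSO. Eya3, a coactivator with a part in the DNA damage response, showed the least movement, with levels of 2.91, 2.83, 2.62 and 2.66 under DMSO and 2.50 to 3.06 over the treated arrays. Its differences from DMSO ran from -0.17 (95% interval -0.39 to 0.05) under BDB to 0.07 (95% interval -0.21 to 0.35) under DOM, and every group overlapped DMSO.

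Eya2, a coactivator expressed in muscle and sensory placodes, was detected on exactly 4 arrays. These were replicate 3 of DMSO at -2.90, of MEHP at -2.29, of DOM at -2.62 and of BDB at -2.09, with processed signals of 42.4 to 65.0 units. The other 19 arrays ranged from -7.22 to -4.89, and none was well above background. The 4 arrays were the whole of the second column of slide 2, and no array at the other 5 slide and column positions was detected. The part of the array position in these values was not tested. Without those arrays no group had a detected Eya2 value, so no comparison of compounds was made. Eya4, mutated in a form of hereditary deafness, was detected on 8 arrays, 3 of DOM, 2 of MEHP, 1 each of DMSO, DINCH and BDB and none of DOS. Its values ran from -6.08 to -3.69 with all groups overlapping DMSO.

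**Figure D3:**
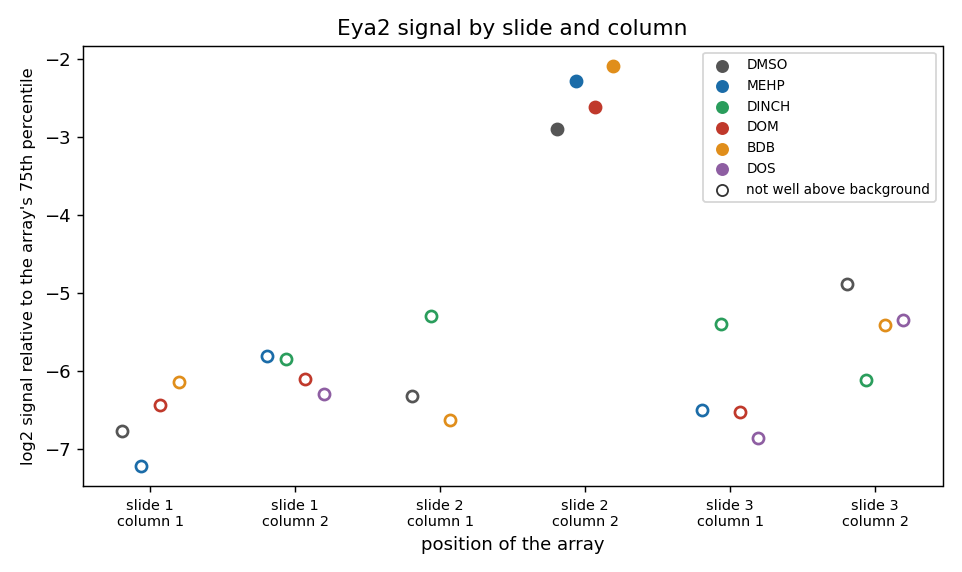
Eya2 level, as log2 signal relative to the array's 75th percentile (y axis), on the 23 arrays placed by slide and column on the slide (x axis) and coloured by group. The 4 filled points, well above background at -2.90 to -2.09, are all at slide 2, column 2, and the 19 open points lie at or below -4.89.

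All comparisons with DMSO used the same 4 DMSO arrays and are not independent of one another. Of the members tested, 1 of 6 was called under MEHP (Dach2), where 1.68% of all tested genes were called. Under DINCH 2 of 5 were called (Dach2 and Six5), against 8.26% of tested genes, and under DOM 3 of 5 (Dach2, Six4 and Six5), against 20.5%. Under BDB and DOS none of 5 was called by limma, with 0% of tested genes called in either comparison. At an unadjusted p below 0.05, 2 of 5 members passed in each of these, where 19% and 7.73% of tested genes did. Groups did not overlap DMSO for 3 of 6 members under MEHP, 2 of 5 under DINCH, 4 of 5 under DOM and 2 of 5 each under BDB and DOS. The shares of all tested genes whose groups did not overlap were 14.4%, 24%, 39.4%, 12% and 8.14%. Since the members were chosen on these contrasts, the counts are printed beside the background and nothing is read from them. The median difference of the tested members lay between -0.17 and 0.07 in the 5 comparisons, and that of all genes between -0.03 and 0.00.

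**Figure D4:**
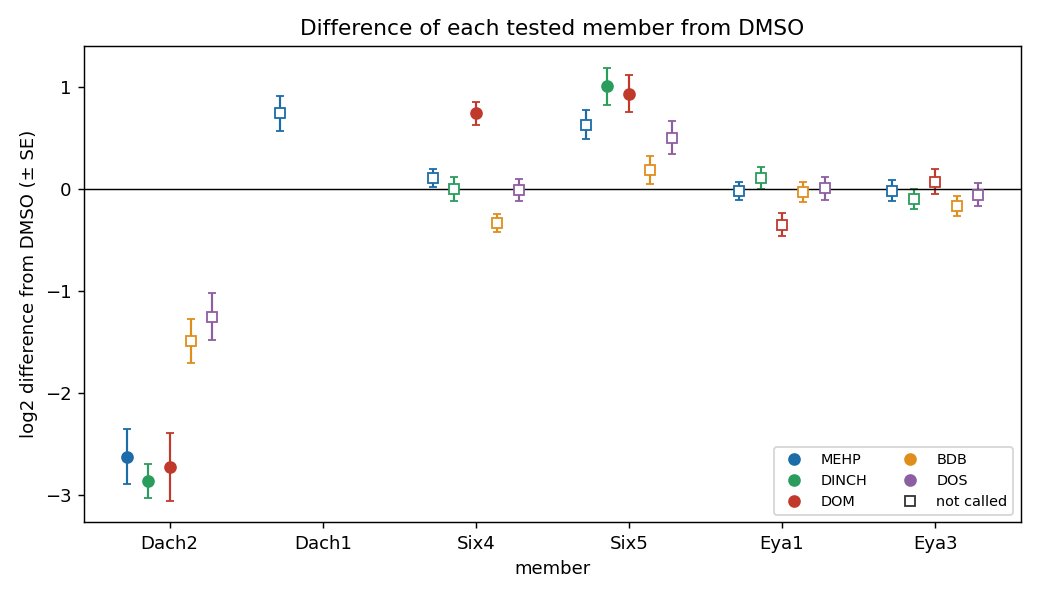
Log2 difference from DMSO (y axis, bars are 1 standard error of the limma fit) of each member tested (x axis) under each compound, with filled circles for called differences and open squares for the rest. Dach2 lies between -2.87 and -1.25 under all 5 compounds, Six4 is called under DOM, Six5 under DINCH and DOM, and Eya1 and Eya3 lie within 0.36 of 0.

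The compounds were next compared with one another at the same dose and time, over 10 pairs. Dach2 was not tested there, because the same treated arrays had been used to choose it. Its level under DINCH was below that under BDB and under DOS on every array, but with 0 of 4 DINCH, 1 of 4 BDB and 1 of 3 DOS arrays detected no size is given. Its level under MEHP was also below that under DOS on every array, and with 1 of 3 DOS arrays detected no size is given there either. DOM and DOS, with 1 array detected in each, overlapped, since DOM replicate 1 lay among the DOS values. The other members gave 44 tests, of which 6 were called by limma over all tested probes of a pair. They concerned Six4 and Six5 alone. The treated arrays were known when the members were chosen, and these p-values are not independent support for the choice.

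Six4 separated DOM from each of the other compounds. DOM exceeded DOS by 0.75 (SE 0.14, 95% interval 0.43 to 1.07, limma adjusted p = 0.00959, or 0.00133 adjusted over the 10 pairs), in a pair in which 15.2% of tested genes were called. This call was lost with no filter on dim probes (limma adjusted p = 0.1) and with only the arrays whose extraction measures were all in range (limma adjusted p = 0.155). All 4 DOM arrays, 0.40 to 0.82, lay above all 3 DOS arrays, -0.26 to 0.04. The part of the double bond of the core in this difference was not tested. DOM exceeded BDB by 1.08 (95% interval 0.81 to 1.35, limma adjusted p = 0.000181), in the pair with the highest share of calls, 27.5%. It exceeded DINCH by 0.74 (limma adjusted p = 0.00338, 23.3% called) and MEHP by 0.63 (limma adjusted p = 0.00354, 19.5% called). The MEHP minus DOM difference was -0.58 without DOM replicate 3 and -0.57 without MEHP replicate 4, both under 1.5-fold. With only those in-range arrays, the difference from BDB was the one Six4 call that held, at 1.04. MEHP exceeded BDB by 0.45, or 1.37-fold, with a limma adjusted p of 0.0342 that did not reach the size for a call, in a pair with 2.59% called. In the remaining pairs 2.4% of tested genes were called for MEHP and DINCH, 0.194% for MEHP and DOS, 3.04% for DINCH and DOS and 0.0419% for BDB and DOS. Between MEHP, DINCH and DOS no Six4 difference passed, and the intervals were -0.16 to 0.39 for MEHP minus DINCH, -0.15 to 0.38 for MEHP minus DOS and -0.32 to 0.33 for DINCH minus DOS.

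Six5 separated DINCH and DOM from BDB. DINCH exceeded BDB by 0.83 (SE 0.15, 95% interval 0.50 to 1.16, limma adjusted p = 0.00743), in a pair with 9.89% of genes called, and DOM exceeded BDB by 0.75 (95% interval 0.43 to 1.08, limma adjusted p = 0.00288). The DINCH call was lost with no filter on dim probes (adjusted p = 0.0644) and with only the in-range arrays (adjusted p = 0.0558) in the same limma fit. MEHP exceeded BDB by 0.45 (limma adjusted p = 0.0288), without reaching 1.5-fold. DOM and DINCH differed by less than their spread, at 0.07 for DINCH minus DOM with an interval of -0.34 to 0.49. The DOM mean exceeded the DOS mean by 0.43 (interval 0.04 to 0.82), and the arrays did not overlap. Its limma adjusted p of 0.108 did not pass over all probes and came to 0.047 adjusted over the 10 pairs. The same held for DINCH minus DOS at 0.51 (interval 0.11 to 0.90, limma adjusted p = 0.152, or 0.038 over the pairs). It also held for MEHP minus DINCH at -0.38 (limma adjusted p = 0.206, or 0.047) and BDB minus DOS at -0.32 (limma adjusted p = 0.207, or 0.038).

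Eya1 was lower under DOM than under the other compounds, by 0.33 against MEHP (limma adjusted p = 0.0254), 0.46 against DINCH (limma adjusted p = 0.0172) and 0.32 against BDB (limma adjusted p = 0.0377). Against DOS the DOM minus DOS difference was -0.36 (95% interval -0.64 to -0.08) with a limma adjusted p of 0.0721. None of these reached 1.5-fold. Eya3 passed in none of the 10 pairs, and its DOM minus DOS difference of 0.13 had a limma adjusted p of 0.53. Dach1 could be tested only in the 4 pairs with MEHP and passed in none of them. Six2, Eya2 and Eya4 met the detection rule in no pair.

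The rest of the network was read from 5 lists of 49 genes in all, other SIX-family genes, cofactors, upstream and partner factors, targets, and the class IIa deacetylase and Mef2 circuit of denervated muscle. These genes were not used to choose the members, but the lists were drawn up with earlier results of these data known. They were tested against DMSO, and the p-values below are not independent support for the lists. Under DOM 8 of 32 tested genes were called, Hdac9 among them, which had entered through the DOM arrays alone, 6 higher and 2 lower, or 25%, beside 20.5% of all tested genes. Under DINCH 1 of 31 was called, or 3.23%, beside 8.26%. Under MEHP, BDB and DOS none of 31 was called by limma, and 8, 8 and 3 of them had an unadjusted p below 0.05, where 21.6%, 19% and 7.73% of all tested genes did.

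Among the other SIX-family genes, Six3 and Six6, the eye and forebrain members, went undetected on all 4 DMSO arrays.

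Of 16 cofactors 15 were tested, and 2 were called higher under DOM, where 20.5% of all tested genes were called. Both belong to the Groucho family of corepressors that SIX-family proteins recruit. Tle2 went from between -1.73 and -1.20 under DMSO to between 0.22 and 0.35 under DOM, a change of 1.67 (SE 0.13, limma adjusted p = 0.000165). Tle1 went from between 2.85 and 3.10 to between 3.57 and 3.81, a change of 0.82 (SE 0.10, limma adjusted p = 0.000697). Tle3 had a difference of 0.23, Tle4 of -0.49 and Tle5 of -0.03 under DOM, and none of them passed. Tle2 was also above DMSO on every DOS array, by 0.64 (limma adjusted p = 0.435), and was not called there. Tle4 went the other way, below DMSO on every DOM array and on every DOS array. Its DOS difference was -0.45 (limma adjusted p = 0.372) and was not called. The median over the 15 cofactors was 0.05, against -0.03 over all genes. Among the upstream and partner factors 5 of 12 were tested, and Hoxa11, which acts with Eya1 and Six2 in the kidney, rose under DOM by 0.95 (SE 0.13, limma adjusted p = 0.00105), from 2.99 to 3.31 under DMSO to 3.95 to 4.45.

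Of 12 genes listed as targets of SIX-family and EYA proteins 7 were tested. Under DOM 2 were called, both lower, where 20.5% of all tested genes were called. Under DINCH 1 was called, where 8.26% of all tested genes were. Under DOM, Slc12a2, the Na-K-Cl cotransporter, fell by 0.68 (SE 0.16, limma adjusted p = 0.0122). Without DMSO replicate 1 its difference was -0.57 and no longer 1.5-fold. Slc12a2 was lower on every MEHP array as well, at -0.57 (SE 0.12, limma adjusted p = 0.0507), and was not called there. Its differences were -0.28, -0.35 and -0.32 under DINCH, BDB and DOS, where arrays overlapped DMSO. Ccnd1, cyclin D1, fell under DOM by 1.32 (SE 0.25, limma adjusted p = 0.00445). The Ccnd1 levels were 5.05, 4.44, 4.30 and 4.08 under DMSO and 3.70, 3.18, 2.99 and 2.70 under DOM. The gonadal targets Nr5a1 and Zfpm2 had DOM differences of -0.23 and 0.01 and did not pass. Myog, the muscle target of Dach2, and Gdnf, the kidney target of Six2, went undetected on all 4 DMSO arrays. Myc fell under DINCH by 0.74 (SE 0.20, limma adjusted p = 0.0463), a call that was lost in 12 of 20 alternative settings, with adjusted p of 0.0501 to 0.256. These included the replicate block, with a limma adjusted p of 0.0623. They also included the fits without DMSO replicate 1, 2, 3 or 4 or DINCH replicate 1, 2 or 4. In those fits the difference ran from -0.85 to -0.57.

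Of the 7 genes of the deacetylase and Mef2 circuit, 5 were tested under DOM and 3 were called higher, Hdac9, Hdac5 and Mef2d. Of all tested genes 20.5% were called under DOM, and nothing is read from a count over so few genes. Hdac9, a class IIa histone deacetylase, was detected on none of the 4 DMSO arrays, at -6.53, -4.57, -5.55 and -6.15, and on all 4 DOM arrays, at -2.01, -3.06, -2.74 and -2.20. With each DMSO array's dimmest detected level as a floor, it was 3.63-fold higher under DOM, a value that rests on that floor. Since it entered that fit only through the DOM arrays, a difference in this direction was built in, and no p is given. Hdac5, of the same class, rose by 0.90 (SE 0.12, limma adjusted p = 0.00105), and Mef2d, a transcription factor that these deacetylases bind, by 0.61 (SE 0.14, limma adjusted p = 0.0113). The Mef2d difference was 0.57 without DOM replicate 2, 0.51 without DOM replicate 4 and 0.54 without DMSO replicate 2, each under 1.5-fold. Under normexp the Mef2d difference was 0.53 and that of Hdac9 0.56, and Mef2d was also not called with no filter on dim probes. Hdac4, the deacetylase of this circuit that lies upstream of Dach2 in denervated muscle, had a difference of -0.41 (limma adjusted p = 0.0877) and did not pass. Mef2a had -0.40 with a limma adjusted p of 0.0179 and did not reach 1.5-fold. Chrna1 and Mef2c were not detected on any DMSO array.

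**Figure D5:**
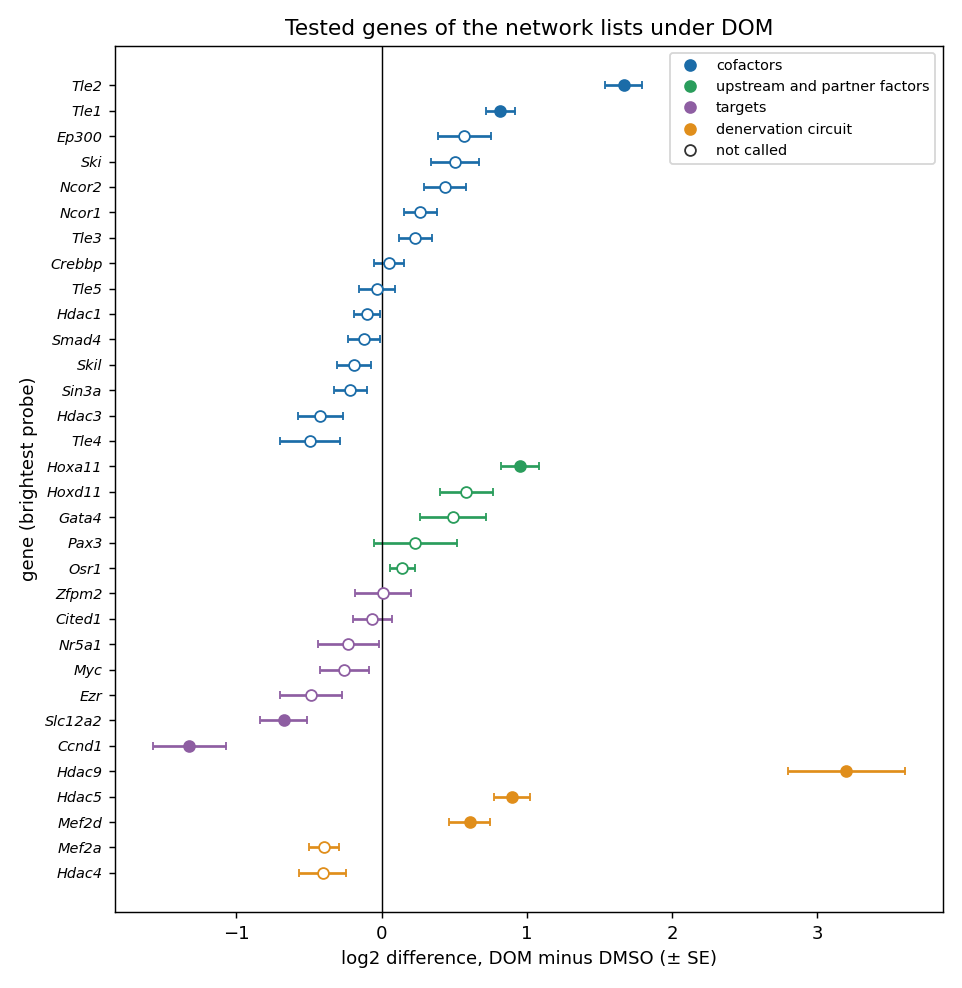
Log2 difference of DOM from DMSO (x axis, bars are 1 standard error) for the 32 tested genes of the network lists (y axis), coloured by list, with filled points for genes called by limma. Tle2 at 1.67 and Hdac9 lead the higher genes and Ccnd1 at -1.32 the lower ones. The fitted Hdac9 value exceeds its floored value of 3.63-fold because no DMSO array detected it.

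Some markers of cell types were called under DOM and DINCH, and their part in the results was not tested. Under DOM, of 8 Sertoli markers tested, Inha and Inhbb were called higher and Sox9 lower. Of 3 peritubular or fibroblast markers Pdgfra was called higher under DOM, where 20.5% of all tested genes were called. Under DINCH, of 8 Sertoli markers, Dhh and Inha were called higher, where 8.26% of all tested genes were called. No marker was called under MEHP, where 1.68% of all tested genes were, or under BDB or DOS, where no gene was. The 75th percentile used for scaling was 234.1 to 320.4 units on DMSO arrays and 204.6 to 350.7 over all arrays.

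The genes whose levels most resembled Dach2 over the 23 arrays were ranked by Pearson correlation among 12116 genes. The highest were Cfap69 (r = 0.89, Spearman's rho = 0.83), Dhrs7 (0.84, 0.75), Adprh (0.84, 0.82), Ctsk (0.83, 0.82) and Arglu1 (0.82, 0.77). The lowest were Micall2 (-0.84, -0.80), Mmab (-0.84, -0.75), Fdps (-0.83, -0.77), Ppp2r5b (-0.82, -0.84) and Shkbp1 (-0.82, -0.84). These coefficients have no test. The 23 points share groups, slides and the scaling of each array, and the 4 DMSO arrays stand apart on the Dach2 axis. Without DMSO replicates 2 and 4, the arrays farthest from the Dach2 median, r was 0.84 for Cfap69 and -0.80 for Micall2. Within the 19 treated arrays it was 0.74 for Cfap69 and -0.71 for Micall2, and over the 10 genes its size ran from 0.64 for Mmab to 0.77 for Shkbp1. The 10 genes were picked over all 23 arrays, so these smaller sets of arrays are no independent check. Most treated Dach2 values were not well above background. Fdps, which makes farnesyl pyrophosphate in the mevalonate pathway, had mean levels of 6.95 under DMSO, 7.74 under MEHP, 7.53 under DINCH, 7.66 under DOM, 7.14 under BDB and 7.25 under DOS, the reverse of Dach2 in placing DMSO lowest, though MEHP rather than DINCH was highest. Ctsk, cathepsin K, had 2.96 under DMSO and 2.51 to 2.82 under the compounds.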

How the data were processed

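RNA of 23 cultures was labelled with Cy3 and hybridized in a single colour to Agilent mouse 8x60K arrays on 3 slides. The authors scanned the arrays and used Feature Extraction 11.5.1.1, per the file headers, to give each spot a background-subtracted, detrended intensity on a linear scale, with flags for outliers and for signals well above background. The authors also deposited log2 values, shifted to the 75th percentile and centred on each probe's median, which served as an alternative (lowest correlation with the same array's intensities 0.9996).

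Here log2 intensity (floor 1) was expressed relative to the 75th percentile of non-control spots on that array, leaving out outlier spots, with no other scaling. Probes were named through RefSeq accessions (26582 of 55681). The array design and the reference table use different genome builds, so no probe position is given. Samples were grouped by their labels. Each compound was fitted against DMSO, and each pair of compounds against each other, in limma 3.58.1 (R 4.3.3, and data.table of version 1.17.8). A probe entered a fit if all arrays of either group had it well above background and not under their 20th percentile. Calls needed a Benjamini-Hochberg adjusted p below 0.05 and over 1.5-fold. Scripts were tested on simulated data. Arrays have no read depth, and the number of arrays limits the precision.

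The rule named all members, list genes called against DMSO, and the 5 genes of highest and 5 of lowest correlation with Dach2. Other list genes and markers were named after their values were seen. A gene of the lists is not reported here. Members and lists were chosen with earlier results of these data known. Deviations from group means were correlated between each treated array and the DMSO array of the same replicate number. The r was 0.169 to 0.497 for DINCH, 0.254 to 0.434 for BDB and 0.199 to 0.452 for DOS. It was -0.14 to 0.454 for MEHP and 0.0386 to 0.431 for DOM. Arrays of unlike numbers were not compared, and some of these arrays shared a slide. Whether replicate numbers pair the arrays was therefore not tested. Alternatives were quantile normalization, normexp, other filters, slide and replicate blocks, 1 fit of all arrays, a variance trend, outlier spots kept, brightest probes only, a floor, the authors' table, each array left out and, added after seeing the data, only the 15 arrays with all extraction measures in range. Promoter windows were searched and figures drawn in Python 3.11.15 with matplotlib 3.10.9.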

Additional observations from a re-analysis of the deposited data

Results flagged for a closer look

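Within 45 gene and group combinations of 4 arrays, 3 held a value far from the other 3 arrays by Dixon's ratio, the gap to the nearest array over the group's range. Chance alone would set about 1 in 20 such groups apart. BDB replicate 2 was the only array on which Six2 was detected, at -3.34, and its ratio was 0.963. DINCH replicate 3 was low for Six2, at -6.87 and not well above background, with a ratio of 0.846. DOM replicate 3 was high for Eya2, at -2.62, with a ratio of 0.892, and it is 1 of the 4 arrays of slide 2, column 2. None of these values entered a call.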

How the results depend on the processing

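Dach2 was lower than DMSO in every comparison under every alternative run. Its log2 difference moved beyond the spread of replicates under normexp (-0.52, -0.42, -0.61, -0.30 and -0.20 in the order MEHP, DINCH, DOM, BDB and DOS) and with the floor (-1.39, -1.09, -1.29 and -1.12 in that order without DOS). With 1 array left out it ran, in the same order, from -2.89 to -2.41, -3.00 to -2.78, -3.09 to -2.50, -1.64 to -1.28 and -1.51 to -1.02. Under MEHP, 1 member was called, against 0 with normexp or no filter on dim probes and 2 with the slide block, the replicate block, all arrays in 1 fit or a variance trend. With 1 array left out it was 1 to 2, and 2 without DMSO replicate 1 or 4. Under DINCH, 2 members were called, against 1 with normexp, no filter or only in-range arrays, and 2 to 3 with 1 array left out. Under DOM it was 3 in all settings. Under BDB it was 0, against 1 with the slide block, all arrays in 1 fit or a variance trend. Network calls under DINCH were 1, against 0 with no filter, detection on 1 array, the replicate block, the authors' table or only in-range arrays, and 0 to 1 with 1 array left out. Under BDB they were 0, against 1 with all arrays in 1 fit, under MEHP 0 to 1 with 1 array left out (1 without DMSO replicate 2), and under DOM 8, against 7 to 12 with 1 array left out, with the most without DOM replicate 1. Of the 6 calls between compounds, 2 were made with only in-range arrays, where groups lose up to 2 arrays, and 5 to 7 with 1 array left out. The replicate block changed no other count beyond 1.5 times. Of 418 recomputed values of single genes 381 kept their side of the threshold, 32 lost and 5 gained a call, and none reversed. Six4 between MEHP and DOM lost its call under normexp, with only in-range arrays and without DOM replicate 3 or MEHP replicate 4, Six4 between DINCH and DOM with only in-range arrays, and Six4 between DOM and DOS and Six5 between DINCH and BDB with no filter or only in-range arrays. Under DOM, Mef2d lost its call under normexp, with no filter and without DOM replicate 2 or 4 or DMSO replicate 2, Slc12a2 with no filter, only in-range arrays and without DMSO replicate 1, and Hdac9 under normexp, while Six5 under DINCH lost its call with no filter or only in-range arrays and Six5 under MEHP gained one without DMSO replicate 4, with the slide or replicate block, all arrays in 1 fit or a variance trend. With no filter the median of all probes shifted by up to 0.247 and with detection on 1 array by 0.103. The cause of these changes was not tested. Signals near background limit what can be said of Dach2, Dach1, Eya2, Eya4 and Six2.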
